A study of Homo sapiens with 21 samples.

Results

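The baseline expression of 2 human monocytic leukaemia cell lines, MOLM-14 and U937, was compared in cells that carried a control hairpin and no knockdown. The comparison used 6 of the 21 arrays of the series, 3 of MOLM-14 and 3 of U937, chosen by their labels as the arrays of these lines transduced with shLuc. MOLM-14 is an acute myeloid leukaemia line in which the gene of the receptor tyrosine kinase FLT3 has an internal tandem duplication and KMT2A is fused to MLLT3, as background knowledge has it. U937, from a histiocytic lymphoma, is known for a fusion of PICALM with MLLT10 and for a lack of functional p53. Cells of both groups expressed a short hairpin RNA against luciferase, a target that human cells lack, were kept in puromycin at 1 µg/ml from 48 h after infection and gave total RNA at day 5. In the remaining arrays the same 2 lines carried hairpins against the kinase SYK (8 arrays) or the third line, HL-60, was profiled. Per the labels' protocol, each line was transduced 3 times with the control hairpin, and the 3 replicates are taken as these transductions. Each group is 1 cell line. The p-values rest on the spread between replicate arrays within a group, estimated over all 9 groups of the 21 arrays and not from these 6 alone. They say nothing of other leukaemias with the same lesions. The control hairpin, present in all 6 samples, was directed at the 21 bases below, given in lower case as the target strand.
shLuc: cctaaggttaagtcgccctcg

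As background, both fusions belong to a group of leukaemia oncogenes that recruit the histone methyltransferase DOT1L and hold stem-cell genes of the HOXA cluster and their partners MEIS1 and PBX3 active. FLT3 with an internal tandem duplication signals without its ligand and activates STAT5, ERK and PI3K pathways. Monocytic cells are known for phagocytosis, Fc receptor signalling through SYK, lysosomal digestion and presentation of antigen on MHC class II molecules.

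RNA was read on Affymetrix human expression arrays, on which sets of short probes (probe sets) report each transcript. Values are log2 intensities after RMA, a normalisation that compresses folds and has no call of presence or absence. Each of 12165 genes was represented by its brightest probe set. A difference is the MOLM-14 mean minus the U937 mean on the log2 scale, given ± its standard error from the limma fit with n = 3 arrays a line, and a gene was called where its Benjamini-Hochberg adjusted p over all 12165 genes was below 0.05. The terms higher and lower below refer to MOLM-14 relative to U937 and are used of called genes. Brightness depends on the probes, so levels of different genes were not set against each other. Where genes have near-identical copies, as FCGR2B and the HLA genes do, a probe set may read more than 1 of them, which makes its name uncertain.

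Of the 13 monocytic markers listed, 12 were measured. In MOLM-14, 7 of them lay above the array median on all 3 arrays, and in U937 6 did. AIF1 was bright in both lines, at 10.31, 10.27 and 10.31 in MOLM-14 and 10.51, 10.56 and 10.49 in U937, and FCGR1A, the high-affinity IgG receptor, read 9.04, 9.16 and 9.02 in MOLM-14 and 7.46, 7.53 and 7.52 in U937. The array median lay between 4.31 and 4.33 in MOLM-14 and between 4.32 and 4.34 in U937. Of all 12165 genes, 4733 were below it on all arrays of both lines. CD14, CD68, ITGAX and VCAN, which mark mature monocytes and macrophages, were below the array median on all arrays of both lines, and CSF1R and CD86 were below it on all U937 arrays. Of 4 measured myeloid markers, all lay above the median on the 3 MOLM-14 arrays and 2 did on the 3 U937 arrays. MPO, the peroxidase of primary granules, was below it in U937. The labelled monocytic identity was thus carried by part of its marker list in each line.

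The lines differed far more than the transductions of one line. Pairs of arrays of the same line correlated at r = 0.9974 to 0.998 over all genes, and pairs of arrays of different lines at r = 0.9383 to 0.9396. The log2 difference between 2 arrays had an SD over genes of 0.167 to 0.192 within a line and 0.919 to 0.933 between lines. Of the 12165 genes, 6334 (52.1%) were called, 3123 (25.7%) higher in MOLM-14 and 3211 (26.4%) lower. Since so many genes passed, gene groups are described below mainly by their members at least 2-fold apart, a set of 1778 genes (14.6%), with 817 (6.72%) higher and 961 (7.9%) lower. These shares of all genes are the background for the counts of every list below. The median difference over all genes was -0.01.

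**Figure D1:**
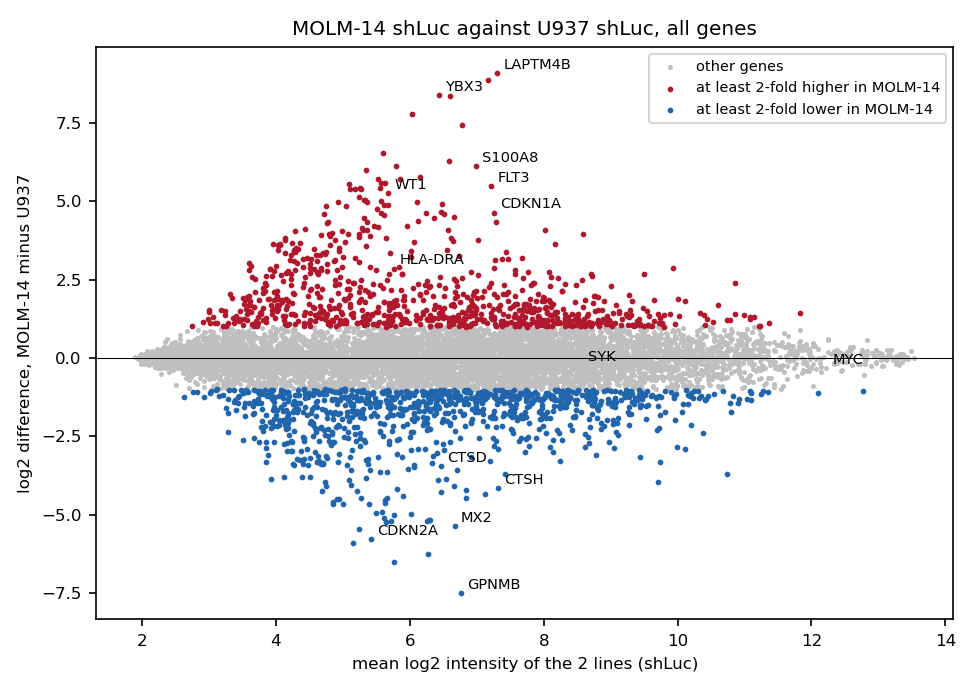
Each point is 1 gene, plotted by its mean log2 intensity over the shLuc arrays of both lines (horizontal axis) and its log2 difference, MOLM-14 minus U937 (vertical axis). Genes called and at least 2-fold higher in MOLM-14 are red (817 with the genes left out), those at least 2-fold lower are blue (961), and Y-linked genes and XIST are left out. The difference of SYK lies near 0 and those of LAPTM4B and GPNMB lie at the ends.

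Large differences were common at both ends. At 4-fold or more, 271 genes were higher and 262 lower, and at 64-fold or more, 13 were higher and 3 lower. In 12 of the 13 and all of the 3, the line with less lay below the array median on its 3 arrays. These were differences between a line with clear signal and a line near the dim end of the scale, where RMA gives no call of absence, so their sizes also depend on the value it gives to dim probe sets and no fold is given for single genes of this kind.

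The largest positive difference was that of LAPTM4B, a lysosomal membrane protein, which read 11.79, 11.85 and 11.88 on the MOLM-14 arrays, against 2.65, 3.05 and 2.59 on the U937 arrays (log2 difference 9.08 ± 0.102, adjusted p = 3.79e-19). PDLIM1, a cytoskeletal PDZ and LIM adaptor, differed by 8.85 ± 0.122 and YBX3, a cold-shock domain protein that binds RNA, by 8.38 ± 0.144. HMGN3, a nucleosome-binding protein, followed at 8.34 ± 0.138. A membrane proteoglycan and the adaptor that binds its tail were both among the leading genes. SDC2, the proteoglycan syndecan-2, read 9.92, 9.96 and 9.86 in MOLM-14 and 2.17, 2.02 and 2.27 in U937, and SDCBP, the adaptor syntenin, read 10.45, 10.53 and 10.47 in MOLM-14 and 2.85, 3.31 and 3.08 in U937. Y-linked genes and XIST, which the counts above include, were left out of the ranking in both directions. The further genes of the leading 15 were EPB41L2, DACH1, GGH, S100A8, LGR4, PRKD3, GPX7, RUBCNL and ZIC1, with differences from 6.52 to 5.57. GGH removes glutamates from folates and antifolates, and LGR4 is a receptor for R-spondins.

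At the other end stood GPNMB, a transmembrane glycoprotein of melanosomes and macrophage lysosomes, which read 2.89, 3.09 and 3.07 on the MOLM-14 arrays, against 10.53, 10.46 and 10.53 on the U937 arrays (log2 difference -7.49 ± 0.118, adjusted p = 1.28e-17). The mitochondrial and peroxisomal enoyl-CoA isomerase ECI2 differed by -6.51 ± 0.144 and the protease inhibitor SERPINE2 by -6.23 ± 0.147. CD69, an early activation antigen of leukocytes, read 2.43, 2.09 and 2.09 in MOLM-14 and 8.07, 8.15 and 8.04 in U937. CDKN2A, PLCB1, MX2, ANPEP, BLVRA, WFDC1, PDK1, RAB32, CLEC5A, HS3ST2 and RETN completed the leading 15, with differences from -4.98 to -5.77. ANPEP encodes the myeloid surface peptidase CD13, CLEC5A a myeloid lectin that signals through TYROBP, and RAB32 a small GTPase of lysosome-related organelles. The 3 and 3 arrays did not overlap for any of the 30 genes, as was so for 7196 genes (59.2%) of all tested.

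**Figure D2:**
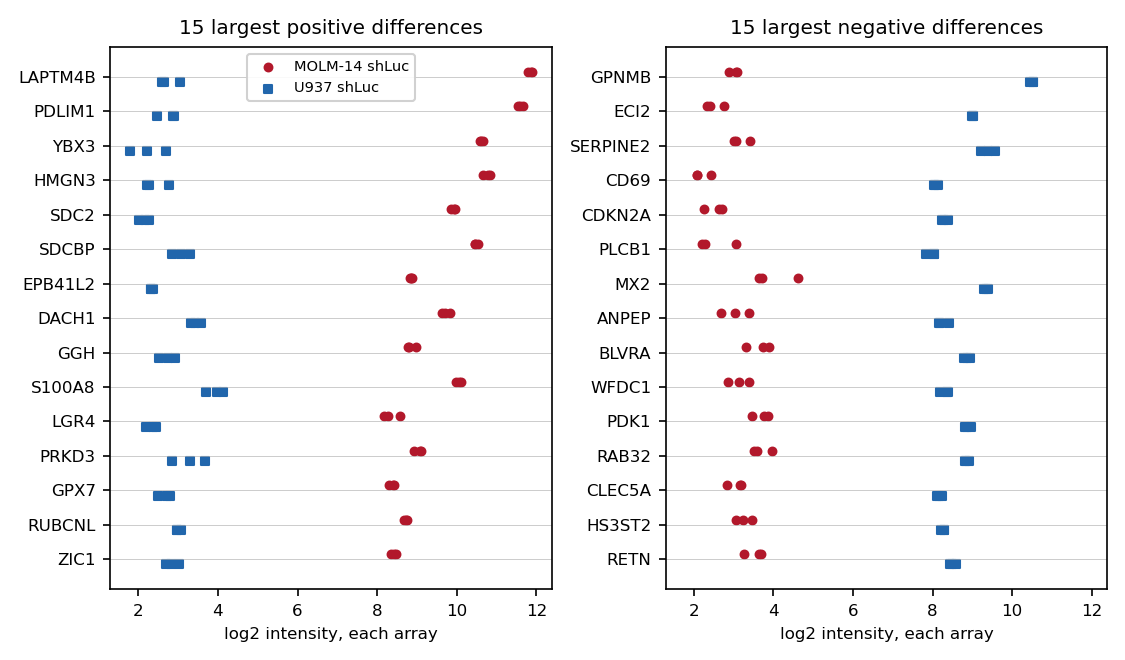
Log2 intensity (horizontal axis) of the 15 genes with the largest positive and the 15 with the largest negative difference, 1 point per array, with MOLM-14 shLuc as red circles above U937 shLuc as blue squares. Y-linked genes and XIST are left out. The 2 lines do not overlap for any gene, and the 3 arrays of a line lie close together: LAPTM4B sits between 11.79 and 11.88 in MOLM-14 and between 2.59 and 3.05 in U937.

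Growth factor and cytokine receptors came apart in both directions. Of 35 measured, 10 were higher and 12 lower, with 6 and 5 at least 2-fold apart, and the median difference was 0.00. FLT3 had the largest difference of the list and read 9.86, 10.07 and 9.91 on the MOLM-14 arrays, against 4.39, 4.17 and 4.89 on the U937 arrays (log2 difference 5.46 ± 0.13, adjusted p = 1.16e-15). The lowest MOLM-14 array lay about 5 log2 units above the highest U937 array. IL3RA, the alpha chain of the interleukin-3 receptor, read 7.13, 7.13 and 7.36 in MOLM-14 and 3.31, 3.54 and 2.96 in U937 (log2 difference 3.94 ± 0.137, adjusted p = 1.47e-13). FGFR1 and the interleukin-7 receptor IL7R were also higher, by 2.68 ± 0.125 and 2.39 ± 0.154. Lower were 2 kinases of the TAM family, which bind ligands on dying cells: TYRO3 differed by -3.40 ± 0.0942 and MERTK by -3.38 ± 0.149. The third TAM kinase, AXL, was higher (1.87), and was named here after its value was seen. IGF1R (-1.23) and the shared beta chain CSF2RB (-1.10) of the GM-CSF, interleukin-3 and interleukin-5 receptors were lower. KIT had a difference of -0.06 (adjusted p = 0.706) and was not called. Its means, 4.27 in MOLM-14 and 4.33 in U937, lay close to the array median. Without MOLM-14 replicate 3 or U937 replicate 2 its difference was 0.011 and 0.029. CSF1R, the receptor of the monocyte growth factor M-CSF, was higher by 0.51 ± 0.156 (adjusted p = 0.011), and without MOLM-14 replicate 1 the difference was 0.44 (adjusted p = 0.0506).

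SYK differed by less than 2-fold between the lines. It read 8.49, 8.42 and 8.44 on the MOLM-14 arrays, against 8.66, 8.70 and 8.70 on the U937 arrays (log2 difference -0.24 ± 0.073, adjusted p = 0.0115), so the groups did not overlap but the difference was below 2-fold. The other, dimmer probe set of SYK differed by -0.61 (adjusted p = 1.80e-06 in the limma fit of single probe sets). Of 37 measured genes of SYK signalling and Fc receptors, 11 were higher and 19 lower, 3 and 5 of them at least 2-fold, and the median was -0.24. The common gamma chain FCER1G, an adaptor whose phosphorylated tail recruits SYK, had the largest negative difference of the list and read 4.90, 4.99 and 4.89 on the MOLM-14 arrays, against 8.44, 8.53 and 8.51 on the U937 arrays (log2 difference -3.57 ± 0.0661, adjusted p = 8.29e-17, 11.9-fold). All 3 U937 arrays lay more than 3 log2 units above all 3 MOLM-14 arrays. FCAR, the IgA receptor that pairs with FCER1G, was lower (-2.24 ± 0.192), as were the inhibitory receptors SIGLEC7 (-1.79 ± 0.194) and LILRB2 (-1.77 ± 0.209). The IgG receptors FCGR1A and FCGR2B were higher by 1.57 ± 0.0554 and 1.35 ± 0.107, and so was the kinase TEC (1.23). The other IgG receptors of the list, named after their values were seen, were FCGR2A, higher by 0.32 ± 0.0667, and FCGR3B, with a difference of -0.07 (adjusted p = 0.594). FCGR3B was dim, and its means of 2.77 in MOLM-14 and 2.84 in U937 lay below the array median.

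Readouts of the pathways known to lie downstream of FLT3 did not share a direction. Among 21 measured STAT5 targets, 6 were higher and 7 lower, 3 and 2 at least 2-fold. SOCS2, a feedback inhibitor of cytokine receptors, read 10.60, 10.56 and 10.52 in MOLM-14 and 6.52, 6.62 and 6.68 in U937 (log2 difference 3.95 ± 0.146, adjusted p = 3.39e-13), and CDKN1A and CCND3 were also at least 2-fold higher. CISH and PIM1, which are induced by STAT5 in many blood cells, had differences of 0.09 (adjusted p = 0.481) and -0.26 (adjusted p = 0.231). PIM1 was called with the replicate number as a block (adjusted p = 0.03). BCL2L1 (-1.37 ± 0.117) and ID1 (-1.40 ± 0.187) were at least 2-fold lower. Of 27 measured ERK feedback and immediate early genes, 11 were higher and 8 lower, 5 and 3 at least 2-fold. DUSP10, FOS, JUND and EGR1 were higher, by 2.23, 2.10, 1.89 and 1.52, and the phosphatases DUSP4 (-3.22) and DUSP5 (-1.06) and the AP-1 subunit JUN (-2.57) were lower. FOS varied within a line, with 7.85, 7.01 and 7.01 in MOLM-14 and 5.29, 5.02 and 5.25 in U937. EGR1 was less certain than FOS, with adjusted p-values of 0.00653 and 6.40e-08 in the limma fit. In the fit of single probe sets the standard error was 0.427 for EGR1 and 0.195 for FOS. MYC was bright in both lines, at 12.03, 12.12 and 12.02 in MOLM-14 and 12.39, 12.37 and 12.38 in U937, and lower in MOLM-14 by under 2-fold (log2 difference -0.32 ± 0.0617, adjusted p = 2.59e-04). Of 18 measured genes of the PI3K pathway, 5 were higher and 9 lower, and the 3 at least 2-fold apart, INPP4B (-1.75), IRS2 (-1.28) and IRS1 (-1.25), were all lower.

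Of 44 measured transcription factors of blood cells, 18 were higher and 15 lower, with 9 in each direction at least 2-fold apart, and 11 were not called. WT1, a zinc finger factor expressed in many leukaemias, read 8.36, 8.33 and 8.21 on the MOLM-14 arrays, against 2.88, 3.62 and 2.63 on the U937 arrays (log2 difference 5.25 ± 0.242, adjusted p = 5.99e-12). CEBPD was higher by 4.86 ± 0.13, and its relatives CEBPB (-1.94 ± 0.0779) and CEBPE (-1.88 ± 0.143) were lower. CEBPA, the family member needed for granulocyte and monocyte commitment, was higher by 0.23 ± 0.0602 (adjusted p = 0.00327), under 2-fold. KLF2 (1.72) and IRF8 (1.43), a factor of monocyte and dendritic cell fate, were higher, and LYL1 (-1.90) and TCF4 (-1.63) were lower. SPI1, the PU.1 factor of all myeloid cells, had a difference of 0.08 (adjusted p = 0.556) and read 4.41, 4.58 and 4.45 in MOLM-14 and 4.46, 4.30 and 4.43 in U937. The C/EBP family therefore held members of both signs. SPI1, read by 1 probe set, lay close to the array median in both lines, so a difference in PU.1 could be missed there.

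The partners of HOXA proteins also split. MEIS1 was lower, at 8.11, 8.14 and 8.17 on the MOLM-14 arrays, against 9.24, 9.23 and 9.22 on the U937 arrays (log2 difference -1.09 ± 0.115, adjusted p = 2.85e-07). PBX3 was higher, at 9.46, 9.53 and 9.33 on the MOLM-14 arrays, against 6.87, 6.54 and 6.73 on the U937 arrays (log2 difference 2.73 ± 0.0899, adjusted p = 7.70e-14), and MEIS2 was higher by 3.14 ± 0.122. Of 17 listed genes of the HOXA cluster and its cofactors, 6 were measured, and 3 of these were higher and 2 lower. HOXA9 was not among the genes tested, so the counts do not describe the cluster as a whole. Among 22 measured targets of KMT2A fusions, 10 were higher and 4 lower, 6 and 2 of them at least 2-fold. Besides FLT3 and SOCS2, MEF2C, a factor linked to the growth of KMT2A leukaemia, read 10.22, 10.13 and 9.86 in MOLM-14 and 6.01, 5.86 and 6.08 in U937 (log2 difference 4.09 ± 0.126, adjusted p = 3.26e-14), and HMGA2, a chromatin protein of fetal stem cells, was higher by 3.37 ± 0.137. CCNA1 (-3.17) and MEIS1 were the targets at least 2-fold lower. Chromatin regulators were balanced, with 14 higher and 13 lower of 37 measured and 3 in each direction at least 2-fold. HDAC9 (4.20 ± 0.106), the Polycomb methyltransferase EZH2 (1.73) and CTCF (1.06) were higher, and CBX7 (-1.63), KDM5B (-1.38) and IDH1 (-1.30) were lower.

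Genes around the fused genes did not move as a block. MLLT10 had a difference of 0.08 (adjusted p = 0.635), but its probe sets ranged from -0.17 to 2.11. BMI1, a Polycomb gene on the same chromosome arm, was lower (log2 difference -0.32 ± 0.0653, adjusted p = 5.00e-04). Of 8 measured genes of that neighbourhood, 1 was higher and 4 lower, and MSRB2 (-2.28) was the 1 at least 2-fold apart. On another chromosome, near MLLT3, CDKN2A, which encodes the cyclin-dependent kinase inhibitor p16 and the p53 activator ARF, read 2.26, 2.71 and 2.64 on the MOLM-14 arrays, against 8.39, 8.24 and 8.28 on the U937 arrays (log2 difference -5.77 ± 0.122, adjusted p = 3.34e-16). All MOLM-14 arrays were below the array median and all U937 arrays far above it. Of the other probe sets of CDKN2A, one differed by -2.78 and one by -0.08. Of 12 measured genes of that neighbourhood, 5 were lower and 1, MLLT3, was higher (1.39 ± 0.0957). MTAP, the gene next to CDKN2A, was lower by under 2-fold (log2 difference -0.84 ± 0.211, adjusted p = 0.00276).

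Targets of p53 were mostly higher in MOLM-14. Of 25 measured, 18 were higher and 1 was lower, beside 25.7% and 26.4% of all genes. At least 2-fold apart were 8, all higher, and the median was 0.55. The cyclin-dependent kinase inhibitor CDKN1A read 9.82, 9.37 and 9.52 on the MOLM-14 arrays, against 4.95, 5.02 and 4.84 on the U937 arrays (log2 difference 4.63 ± 0.126, adjusted p = 5.87e-15, 24.8-fold), and the lowest MOLM-14 array was more than 4 log2 units above the highest U937 array. TP53I3, an oxidoreductase, read 6.26, 6.34 and 6.31 in MOLM-14 and 2.86, 2.95 and 3.26 in U937, and ZMAT3, an RNA-binding protein, read 7.12, 6.96 and 6.99 in MOLM-14 and 4.26, 4.14 and 4.65 in U937. SESN1, a stress-responsive inhibitor of mTORC1, was higher by 2.52 ± 0.0971. MDM2, the ligase that degrades p53, was higher by 1.24 ± 0.174 (adjusted p = 8.85e-06). Its means, 4.01 in MOLM-14 and 2.77 in U937, both lay below the array median. The other probe sets of MDM2 differed by -0.06, 0.35 and 0.79. The death receptor FAS was higher by 1.37 ± 0.127. XPC, a DNA repair gene, was the member that was lower (-0.74).

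Of 31 measured genes of the G1/S transition and DNA replication, 22 were higher and 6 lower, beside 25.7% and 26.4% of all genes. The 9 at least 2-fold apart were all higher, beside 6.72% of all genes at least 2-fold higher, and the median was 0.71. MCM10, a replication initiation factor, read 8.11, 7.98 and 8.04 on the MOLM-14 arrays, against 5.42, 5.72 and 5.39 on the U937 arrays (log2 difference 2.54 ± 0.0924, adjusted p = 2.80e-13). CDC6, which loads the MCM helicase on origins, was higher by 1.70 ± 0.0996, the clamp loader subunit RFC5 by 1.47 ± 0.112 and the thymidine kinase TK1 by 1.34 ± 0.105. All 4 were dimmer on each U937 array than on any MOLM-14 array. The list was not uniform, since its 6 lower members reached a difference of -0.50. Of 25 measured genes of G2/M and mitosis, 7 were higher and 9 lower, with KIF11 (1.22) and BIRC5 (1.09) at least 2-fold higher and TPX2 (-1.22) at least 2-fold lower. Of 20 measured G1 cyclins, kinases and inhibitors, 10 were higher and 5 lower. CCNE2 (2.38) and CCND3 (1.86) were higher beside CDKN1A, and CCNA1, a cyclin of germ cells and leukaemia, was lower beside CDKN2A. Of 32 measured MYC targets and ribosome biogenesis genes, 14 were higher and 9 lower, so 71.9% were called, beside 52.1% of all genes. Only 3 were at least 2-fold apart (9.4%, beside 14.6% of all genes), UTP20 (1.86), the transferrin receptor TFRC (1.38) and MAX (-1.24).

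E2F factors are known to drive many replication genes, so promoters of the list were searched for the E2F site TTTGGCGC and its other strand GCGCCAAA. RefSeq promoter windows of GRCh38.p14, from 250 bases before to 50 after the start, were found for 28 of the 31 genes. The site was in 7 of the 28 windows (25%) and in 0.659% of 27305 windows of all genes. Of the 7, named for the match, CDC6, POLE, POLE2 and DTL were higher and MCM6, GINS1 and POLA1 lower, so windows with the site belonged to genes of both signs. The window of CDC6 (chr17:40287629-40287928, plus strand) is shown with the match in capitals because CDC6 had the largest difference of the 7. A match is a description of letters and not a measured site.
CDC6: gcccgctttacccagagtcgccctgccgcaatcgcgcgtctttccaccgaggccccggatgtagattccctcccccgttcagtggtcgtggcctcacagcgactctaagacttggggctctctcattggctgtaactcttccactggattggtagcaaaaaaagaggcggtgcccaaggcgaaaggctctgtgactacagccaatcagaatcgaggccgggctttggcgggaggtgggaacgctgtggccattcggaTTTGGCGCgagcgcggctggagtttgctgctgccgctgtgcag

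The lysosome was the gene group with the lowest median of the 43 described. Of 31 measured genes, 22 were lower and 7 higher, beside 26.4% and 25.7% of all genes. At least 2-fold apart were 12 lower and 2 higher, beside 7.9% and 6.72% of all genes, and the median was -0.85. The protease CTSH read 5.23, 5.19 and 5.29 on the MOLM-14 arrays, against 9.40, 9.36 and 9.40 on the U937 arrays (log2 difference -4.15 ± 0.109, adjusted p = 4.10e-15, 17.7-fold). CTSD, the aspartic protease of lysosomes, read 4.68, 4.85 and 4.71 on the MOLM-14 arrays, against 8.19, 8.09 and 8.25 on the U937 arrays (log2 difference -3.43 ± 0.108, adjusted p = 4.22e-14, 10.8-fold). NPC2, which carries cholesterol out of the lysosome, read 8.12, 7.95 and 8.16 in MOLM-14 and 11.37, 11.44 and 11.40 in U937 (log2 difference -3.32 ± 0.0819, adjusted p = 1.90e-15). In all 3 genes the lines were separated by 3 log2 units or more. The acid ceramidase ASAH1 was lower as well (-2.89 ± 0.061). Against this direction, the cysteine protease CTSL was higher by 1.68 ± 0.135 and the calcium channel MCOLN1 by 1.11 ± 0.129. LAPTM4B, the lysosomal membrane protein with the largest positive difference of all genes (9.08), was not a member of this list. Genes of the luminal hydrolases and of the membrane were both among the lower members, which ran from LAMP1 at -0.24 to CTSH.

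Lysosomal genes are known targets of the MiT/TFE factors, which bind an E-box within the CLEAR element. Of the 4 family members, TFEB and MITF were higher by 0.50 ± 0.0919 and 0.45 ± 0.109 and TFEC and TFE3 were lower (-1.48 ± 0.0887 and -0.58 ± 0.118); they were named after their values were seen. The core TCACGTG, or CACGTGA on the other strand, was found in 7 of 24 lysosomal promoter windows (29.2%) and in 3.82% of all 27305 windows. Of these 7 genes, again named for the match, LAMP1, CTSA, CTSD, GAA and NEU1 were lower and MCOLN1 and ATP6V0D1 higher. GPNMB, which MITF is known to activate in pigment cells and osteoclasts, was searched for the M-box core TCATGTG on both strands, present in 2.99% of all windows. Its window held 2 matches. The windows of CTSD and MCOLN1 carried the same core and the genes differed in opposite directions, which is why they are shown with GPNMB, with matches in capitals: GPNMB (chr7:23246525-23246824, plus strand), CTSD (chr11:1763878-1764177, minus strand) and MCOLN1 (chr19:7522374-7522673, plus strand). In MCOLN1 the core and its other strand overlap in each of the 2 capital stretches.
GPNMB: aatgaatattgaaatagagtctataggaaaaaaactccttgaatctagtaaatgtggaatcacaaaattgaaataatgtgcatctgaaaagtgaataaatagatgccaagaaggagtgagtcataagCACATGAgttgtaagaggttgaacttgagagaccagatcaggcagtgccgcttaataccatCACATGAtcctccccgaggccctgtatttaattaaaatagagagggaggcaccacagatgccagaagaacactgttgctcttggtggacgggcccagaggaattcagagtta
CTSD: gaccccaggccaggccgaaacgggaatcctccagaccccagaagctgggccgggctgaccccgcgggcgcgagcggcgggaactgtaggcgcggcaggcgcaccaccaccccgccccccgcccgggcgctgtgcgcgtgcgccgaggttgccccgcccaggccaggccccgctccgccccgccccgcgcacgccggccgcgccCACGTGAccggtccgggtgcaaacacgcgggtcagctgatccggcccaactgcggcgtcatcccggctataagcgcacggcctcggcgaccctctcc
MCOLN1: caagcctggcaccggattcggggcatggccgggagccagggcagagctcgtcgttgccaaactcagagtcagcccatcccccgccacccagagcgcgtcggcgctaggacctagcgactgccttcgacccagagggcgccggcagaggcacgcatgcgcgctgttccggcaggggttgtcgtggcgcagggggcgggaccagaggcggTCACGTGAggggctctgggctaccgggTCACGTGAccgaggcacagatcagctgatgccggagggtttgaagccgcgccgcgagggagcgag

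**Figure D3:**
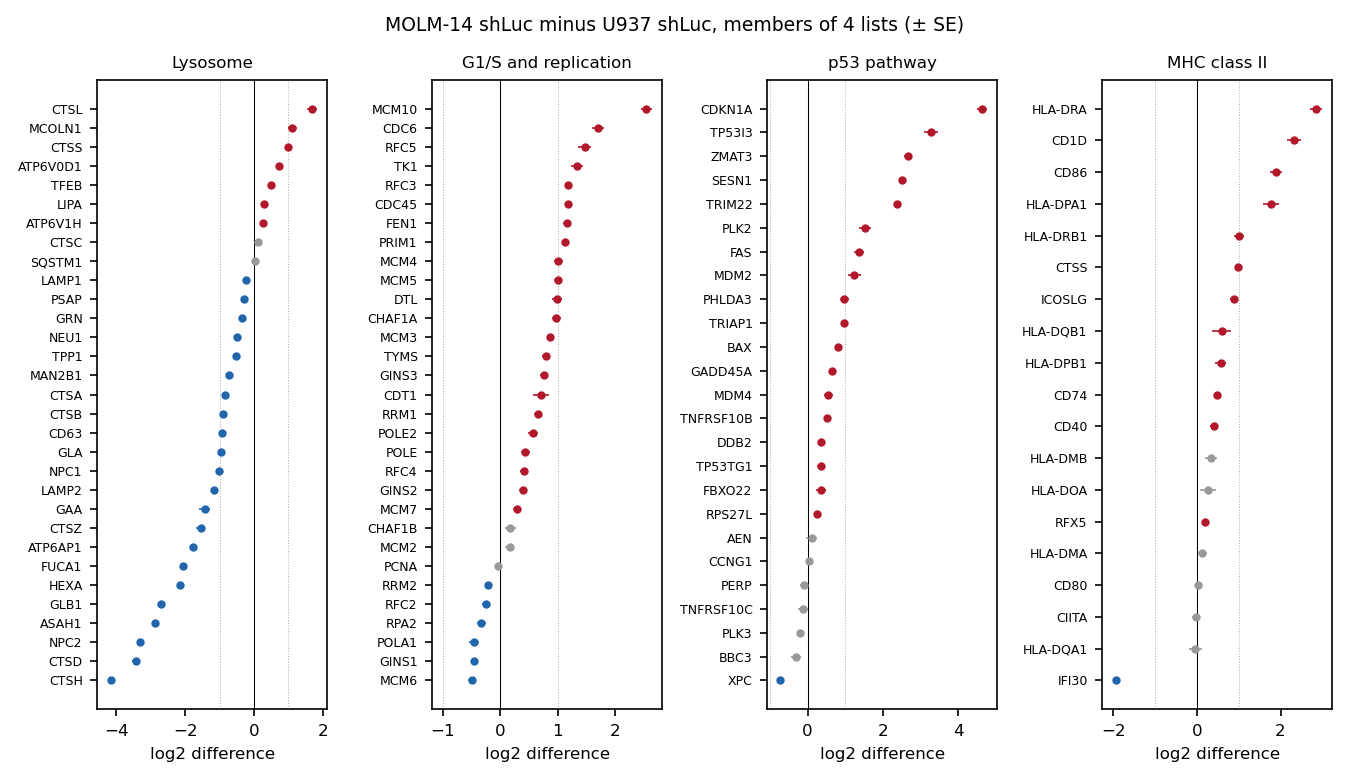
Log2 difference, MOLM-14 minus U937 (horizontal axis), of every measured member of 4 lists, as points with the standard error. Red points were higher, blue points lower and grey points not called, and dotted lines mark a 2-fold difference. Most lysosome members lie left of 0 and most members of the replication, p53 and MHC class II lists lie right of it, with CTSL, MCM6, XPC and IFI30 among the exceptions.

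Monocyte and granule genes were divided. Of 35 measured monocyte and macrophage genes, 14 were higher and 10 lower, 7 and 5 at least 2-fold. Below the array median in both lines lay 13 of the 35, beside 4733 of all 12165 genes. S100A8, one chain of the calcium-binding heterodimer calprotectin, read 10.06, 9.97 and 10.10 on the MOLM-14 arrays, against 4.12, 3.71 and 3.97 on the U937 arrays (log2 difference 6.11 ± 0.106, adjusted p = 3.47e-17), and its partner S100A9 was higher by 4.08 ± 0.114. The scavenger receptor CD36 and the costimulator CD86 were higher by 2.32 ± 0.151 and 1.89 ± 0.145. MNDA, a nuclear antigen of myeloid cells, read 7.36, 7.12 and 7.22 in MOLM-14 and 10.32, 10.27 and 10.37 in U937 (log2 difference -3.09 ± 0.0806, adjusted p = 3.91e-15), and CYBB (-1.93), the catalytic subunit of the NADPH oxidase, LILRB2 and FCN1 (-1.73) were also lower. ITGAM, the CD11b integrin chain, was higher by 1.21 ± 0.0986 (adjusted p = 1.07e-08). CD14 was dim in both lines, with 3.13, 3.27 and 2.85 in MOLM-14 and 2.72, 2.93 and 2.58 in U937. It was called (log2 difference 0.34 ± 0.133, adjusted p = 0.043), but without MOLM-14 replicate 1 or 2 or U937 replicate 1 or 3 it was not, with differences of 0.31, 0.24, 0.33 and 0.26 and adjusted p-values of 0.108, 0.186, 0.0957 and 0.174.

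Of 14 measured primary granule genes, 7 were higher and 5 lower, with 4 in each direction at least 2-fold. MPO read 5.98, 6.28 and 6.19 on the MOLM-14 arrays, against 3.22, 3.66 and 3.28 on the U937 arrays (log2 difference 2.76 ± 0.114, adjusted p = 1.44e-12). BPI, a bactericidal protein, was higher by 2.80 ± 0.169 and the ribonucleases RNASE6 and RNASE2 by 3.18 ± 0.0941 and 1.11 ± 0.0605. CST7 (-3.70), MS4A3 (-1.99), SERPINB1 (-1.55) and CTSG (-1.05) were lower. Late neutrophil genes were mostly dim, with 17 of 24 below the array median in both lines, beside 4733 of all 12165 genes. S100P (-3.94 ± 0.165) had the largest difference among them and CXCR2 (-1.57) and the G-CSF receptor CSF3R (-1.01) were lower too. Across 24 S100, annexin and related genes, 5 in each direction were at least 2-fold apart, with the annexins ANXA4 (2.38) and ANXA1 (1.31) higher and ANXA6 (-1.89), S100A4 (-1.30) and S100A6 (-1.20) lower. Granule and S100 genes of one family therefore stood at both ends.

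Progenitor genes included several with very unequal levels and many that were dim in both lines, 16 of 32, beside 4733 of all 12165 genes. Of the 32, 11 were higher and 6 lower. Besides LAPTM4B, SOCS2 and IL3RA, the neural adhesion molecule NCAM1 (CD56) was higher, at 8.48, 8.54 and 8.56 in MOLM-14 and 4.75, 4.77 and 4.58 in U937, although its 5 probe sets ranged from -0.33 to 3.83. CD34, the classical progenitor antigen, had a difference of -0.12 (adjusted p = 0.344) and lay at 4.08, 3.98 and 3.78 in MOLM-14 and 3.97, 4.17 and 4.06 in U937. CD47 (-1.73), which inhibits phagocytosis, ITGA4 (-1.49) and CD99 (-1.17) were at least 2-fold lower.

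Of 19 measured transcripts of MHC class II and costimulation, 12 were higher, 1 was lower and 6 were not called, beside 25.7% higher and 26.4% lower of all genes. At least 2-fold apart were 5 higher and 1 lower, and the median was 0.49. HLA-DRA, the alpha chain of HLA-DR, read 7.06, 7.14 and 7.36 on the MOLM-14 arrays, against 4.25, 4.25 and 4.52 on the U937 arrays (log2 difference 2.85 ± 0.135, adjusted p = 8.51e-12, 7.19-fold), so in U937 it was close to the array median. CD1D, which presents lipids, was higher by 2.32 ± 0.169 and HLA-DPA1 by 1.77 ± 0.188. CIITA, the master activator of class II genes, read 3.29, 3.31 and 3.12 in MOLM-14 and 3.32, 3.18 and 3.26 in U937 (log2 difference -0.01 ± 0.0947, adjusted p = 0.919), below the array median on every array, and was named here after its value was seen. IFI30, a lysosomal thiol reductase of antigen processing, was the lower member (-1.95). With the mean of a gene's probe sets, or with 16 added to the intensity before log2, 2 members were at least 2-fold higher in place of 5.

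MHC class I showed no common direction, with 6 higher and 7 lower of 18 measured. The peptidases that trim peptides for class I, ERAP1 and ERAP2, had the largest differences. ERAP2 read 7.14, 6.96 and 6.93 in MOLM-14 and 2.87, 3.03 and 2.98 in U937 (log2 difference 4.05 ± 0.136, adjusted p = 9.83e-14). The probe set of ERAP1 used here differed by 3.15, but the 6 probe sets of that gene ran from -2.82 to 3.15, so they disagreed in sign and the mean of the 6 gave -0.09 (adjusted p = 0.218). PSMB10, an immunoproteasome subunit, was higher (1.13).

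Interferon response genes were far apart in both directions. Of 39 measured, 12 were higher and 16 lower, 8 and 10 at least 2-fold, beside 6.72% and 7.9% of all genes. SAMHD1, a nucleotide hydrolase that restricts retroviruses, read 8.78, 8.86 and 8.73 on the MOLM-14 arrays, against 4.12, 4.09 and 4.18 on the U937 arrays (log2 difference 4.66 ± 0.112, adjusted p = 1.28e-15). XAF1 (2.73), TRIM22 (2.38) and IFI35 (2.16) were higher as well. MX2, a GTPase that also restricts retroviruses, read 3.65, 4.63 and 3.71 on the MOLM-14 arrays, against 9.34, 9.30 and 9.40 on the U937 arrays (log2 difference -5.35 ± 0.191, adjusted p = 2.15e-13), and UBE2L6, the conjugating enzyme of ISG15, read 4.72, 5.05 and 5.11 in MOLM-14 and 9.30, 9.29 and 9.29 in U937. IFI6 (-3.02) and IFITM1 (-2.27) were lower too. The list had members with log2 differences beyond 4 on each side of 0 and a median of -0.03.

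Among 35 measured Toll-like receptor and inflammatory genes, 15 were higher and 11 lower, 8 and 6 at least 2-fold. The cytokine TNF read 7.90, 7.59 and 7.67 in MOLM-14 and 4.14, 4.41 and 4.40 in U937 (log2 difference 3.40 ± 0.0945, adjusted p = 7.90e-15). Higher too were TNFAIP3 (2.10), a feedback inhibitor of NF-kB, LY86 (2.04), the partner of CD180, and IRAK3 (1.71). The chemokine CCL2 read 3.92, 3.53 and 3.68 in MOLM-14 and 7.13, 6.95 and 6.83 in U937 (log2 difference -3.26 ± 0.139, adjusted p = 2.05e-12), and PTX3 (-2.62), the endotoxin receptor TLR4 (-1.94) and CCL5 (-1.51) were lower. Of 22 measured chemokine and chemoattractant receptors, 7 were higher and 9 lower, with 5 and 2 at least 2-fold. CCR2, the receptor of CCL2, read 6.88, 6.64 and 7.10 in MOLM-14 and 3.25, 3.34 and 2.96 in U937 (log2 difference 3.69 ± 0.139, adjusted p = 4.30e-13). The receptor was thus higher in the line in which its ligand was lower. The adenosine receptor ADORA2B was higher by 4.07 ± 0.101, and CX3CR1 by 2.05 ± 0.104. S1PR4 (-2.41) and CXCR2 were lower.

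Of 32 measured integrins and adhesion molecules, 12 were higher and 12 lower, 7 and 2 at least 2-fold. The tetraspanin CD81 read 8.19, 7.96 and 8.09 on the MOLM-14 arrays, against 2.76, 3.56 and 2.87 on the U937 arrays (log2 difference 5.01 ± 0.205, adjusted p = 1.24e-12). ITGA6, the laminin-binding integrin chain, read 4.64, 4.64 and 4.56 on the MOLM-14 arrays, against 9.07, 9.07 and 9.09 on the U937 arrays (log2 difference -4.47 ± 0.0787, adjusted p = 4.47e-17). In both genes the lines did not overlap, and CD81 lay below the array median in U937. The leukocyte integrin chains ITGAL and ITGB7 were higher by 2.09 ± 0.0892 and 2.06 ± 0.0901. ITGA4, which pairs with ITGB7, was lower (-1.49 ± 0.0739).

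Survival genes of the BCL2 family differed by member. Of 18 measured, 7 were higher and 6 lower. BCL2 was higher by 1.44 ± 0.086 (adjusted p = 1.91e-10) and MCL1 by 0.57 ± 0.0577 (adjusted p = 1.99e-07). The anti-apoptotic BCL2A1 was lower, at 6.66, 6.33 and 6.36 in MOLM-14 and 9.02, 9.02 and 9.03 in U937 (log2 difference -2.57 ± 0.0783, adjusted p = 2.62e-14), as was BCL2L1, given above. The BH3 protein BIK was higher (1.82) and BNIP3L was lower (-1.19). Of 19 measured death receptors and caspases, 8 were higher and 2 lower. CASP1 (1.57), the inflammasome protease, FAS and CFLAR (1.14) were at least 2-fold higher and CASP6 (-1.37) at least 2-fold lower.

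Enzymes of aldehyde, glutathione and xenobiotic metabolism stood out by single genes. Of 32 measured, 13 were higher and 11 lower, 8 and 5 at least 2-fold. The aldehyde dehydrogenase ALDH3A2 read 8.86, 8.95 and 9.01 in MOLM-14 and 3.80, 4.21 and 4.09 in U937. ALDH2, the mitochondrial enzyme that clears acetaldehyde, read 8.63, 8.61 and 8.59 in MOLM-14 and 4.42, 4.52 and 4.64 in U937. ALDH1A3, which makes retinoic acid, was higher by 4.74 ± 0.147 and CYP1B1 by 3.94 ± 0.128. CDA, the cytidine deaminase that inactivates cytarabine, read 3.51, 3.27 and 3.33 on the MOLM-14 arrays, against 7.88, 7.91 and 7.86 on the U937 arrays (log2 difference -4.51 ± 0.148, adjusted p = 7.21e-14). All U937 arrays had clear signal and all MOLM-14 arrays lay below the array median. GSTA4 (-3.05), GSTP1 (-2.22) and MGST3 (-1.74) were lower.

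Of 26 measured oxidative phosphorylation genes, 12 were higher and 11 lower and 1, UQCRC2 (-1.11), was at least 2-fold apart. Of 23 measured glycolysis genes, 5 were higher and 13 lower, with a median of -0.26, and 26.1% were at least 2-fold apart, beside 14.6% of all genes. PDK1, the kinase that switches off pyruvate dehydrogenase, read 3.47, 3.88 and 3.78 in MOLM-14 and 8.97, 8.81 and 8.87 in U937 (log2 difference -5.18 ± 0.149, adjusted p = 1.24e-14). The glucose transporter SLC2A3 was higher (1.39), while SLC2A5 (-1.93) and HK1 (-1.91) were lower. Among 22 measured genes of cholesterol and fatty acid synthesis, 6 were higher and 10 lower, with ELOVL6 (1.50) higher and SQLE (-1.30) lower. Of 24 ATF4 and amino acid genes, 12 were higher and 7 lower. ASNS, asparagine synthetase, was higher by 2.48 ± 0.127 and TRIB3 was lower (-1.78 ± 0.104).

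Ribosomal protein and housekeeping genes, which all cells use, were described for comparison. Of 22 measured ribosomal protein genes, 6 were higher and 3 lower, none by 2-fold (0 of 22), and their differences ran from -0.21 to 0.27. Their mean level was 12.96 to 12.99 in MOLM-14 and 12.91 to 12.93 in U937. They lay at the bright end of the values, so their range is not a scale for dimmer genes. Of 17 housekeeping genes, 7 were higher and 6 lower, and 2 were at least 2-fold apart, TFRC and GUSB (-1.97), a lysosomal glucuronidase.

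Markers of other cell types were mainly at the dim end. Below the array median on all arrays of both lines lay 11 of 13 erythroid, 12 of 12 megakaryocyte, 15 of 17 T and NK cell, 10 of 11 B cell and 11 of 17 epithelial and stromal markers. The same held for 4733 of all 12165 genes. The mean level of the erythroid list was 3.11 to 3.23 in MOLM-14 and 3.31 to 3.34 in U937, and that of the megakaryocyte list 3.05 to 3.21 in MOLM-14 and 3.17 to 3.22 in U937. For T and NK cell markers it was 3.41 to 3.48 in MOLM-14 and 3.58 to 3.67 in U937, and for B cell markers 3.20 to 3.31 in MOLM-14 and 3.59 to 3.69 in U937. Epithelial and stromal markers had 4.30 to 4.40 in MOLM-14 and 3.89 to 3.93 in U937. Single members departed from this. KRT18, a keratin, read 7.48, 7.59 and 7.55 in MOLM-14 and 3.11, 3.20 and 2.95 in U937. NKG7, a granule protein of killer cells, read 7.63, 7.57 and 7.71 in MOLM-14 and 10.33, 10.33 and 10.26 in U937, and IGLL1, a surrogate light chain, read 2.75, 2.92 and 3.54 in MOLM-14 and 6.60, 5.76 and 6.23 in U937. Of 24 measured genes listed as cancer-testis antigens, 22 were below the median in both lines. MAGED2 (-2.75) and MAGED1 (-2.65) were lower, but they are MAGE family genes of the list and not cancer-testis antigens in the strict sense.

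**Figure D4:**
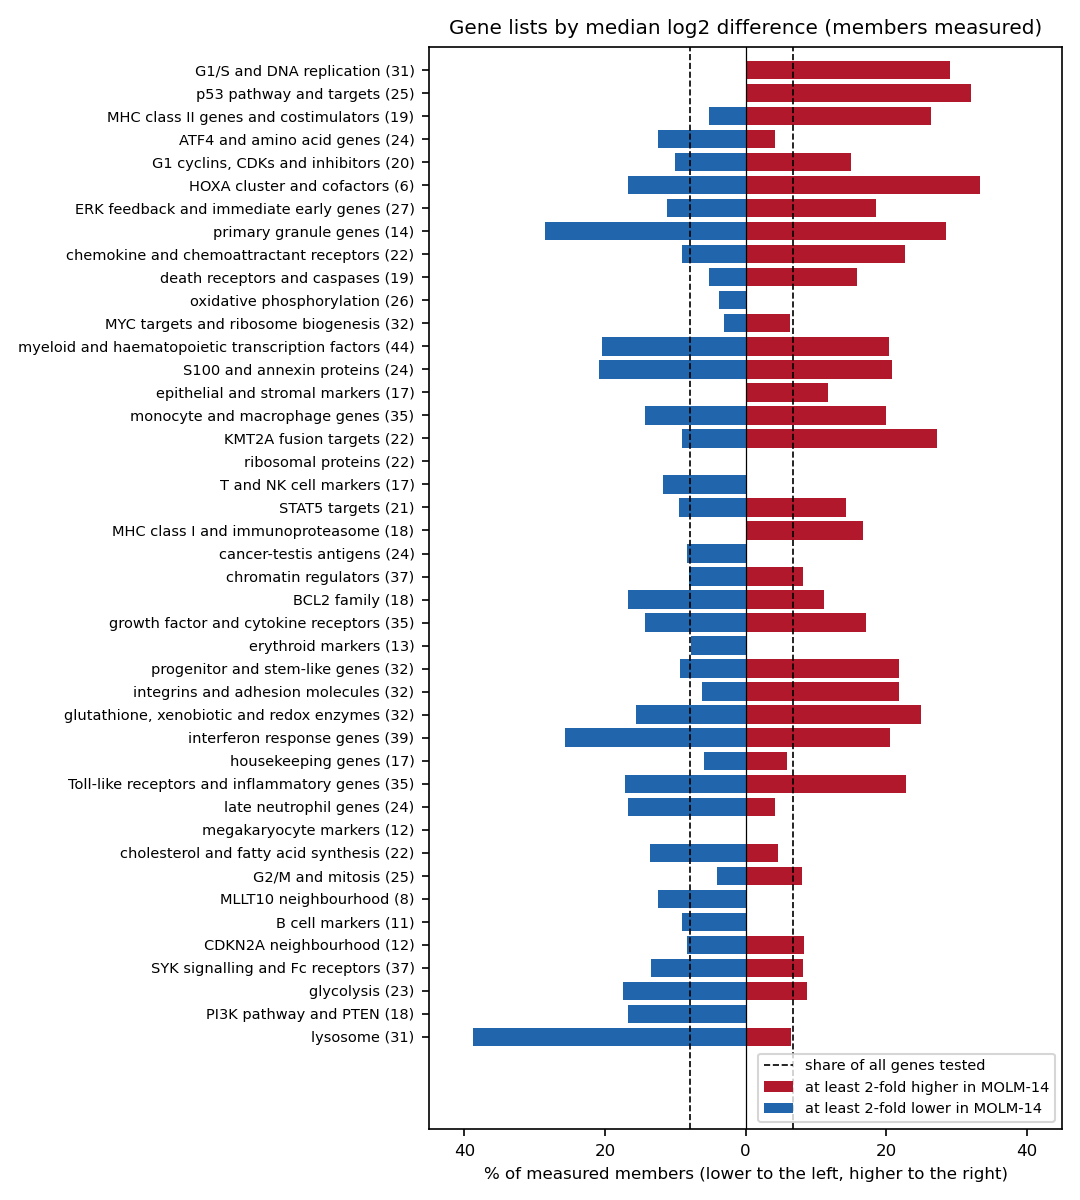
Share of the measured members of each of 43 lists that were called and at least 2-fold higher (red, to the right) or lower (blue, to the left) in MOLM-14, as a percentage of measured members (number in brackets), ordered by the median log2 difference. Dashed lines mark the shares among all genes tested, 6.72% higher and 7.9% lower. The replication and p53 lists have no blue bar, the lysosome list has the longest blue bar and the lowest median, and ribosomal proteins have no bar.

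The same line difference was available in 8 arrays whose values did not enter the shLuc means, 4 of MOLM-14 and 4 of U937 with hairpins against SYK. These arrays did enter the estimate of spread, which was fitted to all 21 arrays and is shared by both comparisons. The differences therefore come from separate arrays, but the calls are not independent of each other. In the 8 arrays, 6631 of 12165 genes (54.5%) were called. Of the 6334 genes called with shLuc, 6178 had the same sign and 5585 (88.2%) had the same sign and were called again, while 12 were called with the other sign. With shSYK_1 alone 4861 (76.7%) were called again with the same sign and 45 with the other, and with shSYK_2 alone 4993 (78.8%) and 37. Of the 1778 at least 2-fold apart, 1776 had the same sign and 1771 (99.6%) were called again. Over all genes, the 2 sets of differences correlated at r = 0.968, a value across genes that share the arrays of a set. The gene that was called in opposite directions among the 1778 was MS4A4A, a membrane protein of macrophages, which was named after its values were seen. With SYK hairpins it read 4.61 and 4.59 in MOLM-14, against 6.78 and 7.00 in U937, with shSYK_1, and 4.52 and 4.44 in MOLM-14, against 5.25 and 5.26 in U937, with shSYK_2. With shLuc it read 6.01, 5.73 and 6.22 in MOLM-14 and 3.12, 2.71 and 3.62 in U937. MOLM-14 was thus below U937 on all SYK hairpin arrays and above it on all shLuc arrays.

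**Figure D5:**
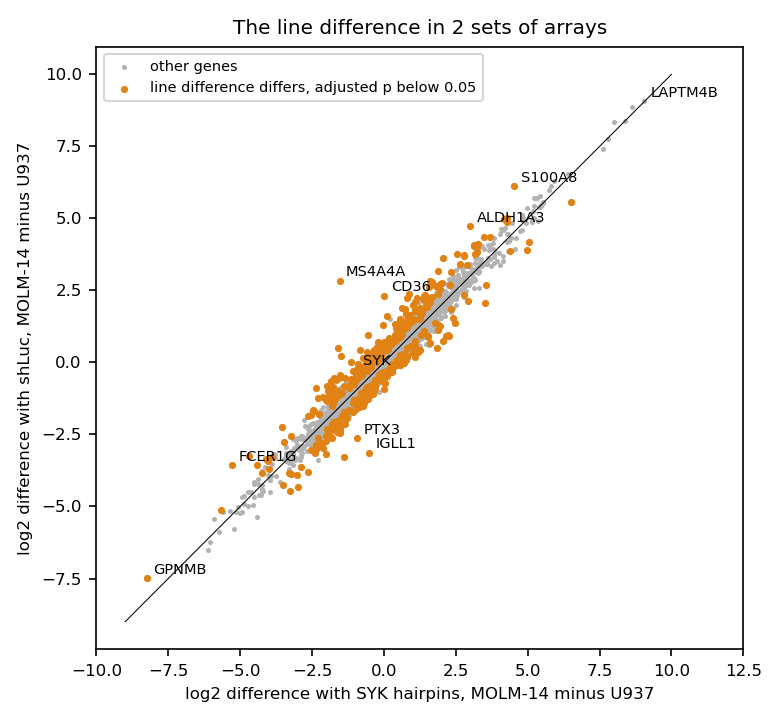
Log2 difference, MOLM-14 minus U937, in the 8 arrays with SYK hairpins (horizontal axis) against that in the 6 shLuc arrays (vertical axis), 1 point per gene, with the line of equality. Orange points are the 450 genes (3.7%) whose line difference itself differed between the 2 sets of arrays at an adjusted p below 0.05, less Y-linked genes and XIST. Points lie along the line (r = 0.968), and MS4A4A lies on opposite sides of 0 in the 2 sets.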

How the data were processed

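Per the submitters' processing notes, the authors used RMA; its version, image analysis and any further step are not given here. The deposited values are linear intensities (3.23 to 13024.67), where the design had assumed log2, and their log2 was used with no pseudocount. Median intensity per array was 19.76 to 20.24 on the 6 shLuc arrays, and the number of arrays limits the precision. Of 22277 probe sets, 62 were controls, 19724 carried 1 gene symbol, 568 several and 1923 none in the annotation used; symbols of 19707 were updated through RefSeq (GRCh38.p14) and 17 kept. The brightest probe set by its mean over all arrays stood for each of 12165 genes.

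A limma 3.58.1 model (R 4.3.3) with a mean for each of 9 groups was fitted to all 21 arrays (12 residual and 4.09 prior degrees of freedom), with moderated, two-sided tests and Benjamini-Hochberg adjustment. The script was tested on simulated data. Replicate numbers did not pair the samples: same-numbered arrays of the 2 lines had correlations of their deviations of 0.03, -0.03 and 0.01. Alternatives changed the samples fitted, probe sets, filter, scaling, offset, prior, weights, block and minimum difference, and left out each array. Named genes were a set list, the 15 largest differences in each direction, and up to 4 members a direction of each list among those at least 2-fold apart; further members complete a count or are marked. Members, lists and the rule were chosen with earlier results of these data known. One HL-60 array in the fit has conflicting labels and was left out as an alternative.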

Additional observations from a re-analysis of the deposited data

Results flagged for a closer look

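For 54 of 239 genes, 213 chosen by the naming rule and 26 otherwise named, the difference between MOLM-14 and U937 itself differed between the SYK hairpin arrays and the shLuc arrays, by the limma test of that difference with adjusted p below 0.05 over 12165 genes. Over all genes 450 (3.7%) passed this test, 214 with a positive and 236 with a negative second difference. The second difference is the line difference with SYK hairpins minus that with shLuc, so it shares the shLuc arrays with the comparison above. Most of the 239 were chosen for large differences on those arrays, so their direction is a description only. The line difference was smaller in size with SYK hairpins in 42 of the 54 and larger in 12, beside 285 and 165 of the 450. Its sign was the same in 49 of the 54 and in 386 of the 450. The 5 with the other sign were MS4A4A, at -1.53 with SYK hairpins, against 2.84 with shLuc, AIF1 (0.29, against -0.23), ANXA1 (-0.02, against 1.31), CD68 (-0.46, against 0.30) and MITF (-0.22, against 0.45). With SYK hairpins ANXA1 and MITF were not called (limma adjusted p = 0.845 and 0.0584), so no reversal is shown for them. AIF1 lost its shLuc call with the mean of its probe sets, and CD68 lost its shLuc call in several alternatives.

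Of the genes higher in MOLM-14 with shLuc, 30 had a negative second difference: MS4A4A -4.37, CD36 -2.31, ALDH1A3 -1.74, S100A8 -1.58, IL7R -1.51, ANXA1 -1.34, RNASE6 -1.28, CD86 -1.25, ITGAL -1.02, FCGR2B -0.96, S100A9 -0.95, ERAP2 -0.93, CCR2 -0.90, ALDH2 -0.88, ITGAM -0.81, CCND3 -0.79, DUSP10 -0.79, TNF -0.77, CD68 -0.76, MPO -0.75, FCGR1A -0.73, MITF -0.68, TFRC -0.66, NCAM1 -0.61, LY86 -0.59, TYROBP -0.54, TNFAIP3 -0.51, ANXA4 -0.51, CFLAR -0.48 and SLC2A3 -0.44. A positive one was seen in 2 of them, ACTA2 0.65 and ALDOC 0.74. Of the genes lower with shLuc, 14 had a positive second difference: IGLL1 2.62, PTX3 1.68, UBE2L6 1.36, CCNA1 1.16, CCL5 0.77, IFITM1 0.75, HK1 0.63, S100A6 0.57, GSTA4 0.53, AIF1 0.52, INPP4B 0.43, XPC 0.39, MGST3 0.36 and S100A4 0.26. A negative one was seen in 8: FCER1G -1.70, CCL2 -1.45, FCAR -1.29, GPNMB -0.75, SYK -0.72, CTSD -0.59, CLEC5A -0.58 and CST7 -0.30.

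The arrays of MS4A4A are given above. IGLL1 and CD36 had the next largest second differences, and FCER1G and SYK are shown as members of the SYK pathway. IGLL1 with SYK hairpins read 3.19 and 2.76 in MOLM-14, against 3.35 and 3.09 in U937, with shSYK_1, and 3.08 and 3.07 in MOLM-14, against 3.89 and 3.81 in U937, with shSYK_2, so U937 was below its shLuc level under both hairpins. CD36 with SYK hairpins read 8.36 and 8.17 in MOLM-14, against 7.41 and 7.00 in U937, with shSYK_1, and 4.72 and 4.81 in MOLM-14, against 5.72 and 5.87 in U937, with shSYK_2. It was above its shLuc level in both lines with shSYK_1, but with shSYK_2 it was above it in U937 and below it in MOLM-14. FCER1G with SYK hairpins read 4.32 and 4.17 in MOLM-14, against 9.91 and 9.90 in U937, with shSYK_1, and 4.43 and 4.21 in MOLM-14, against 9.21 and 9.20 in U937, with shSYK_2, so U937 was higher and MOLM-14 lower than with shLuc under both hairpins. SYK itself, the hairpins' target, read 6.16 and 6.16 in MOLM-14, against 7.02 and 6.97 in U937, with shSYK_1, and 5.62 and 5.35 in MOLM-14, against 6.57 and 6.55 in U937, with shSYK_2, a line difference of -0.95. Groups of 3 arrays were not examined for single outlying arrays.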

How the results depend on the processing

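Of 239 named genes, 230 were called. Of the 19 alternatives, 18 gave a value per gene, and 225 genes had one in all 18 (the filter left out 14). Of the 225, 167 kept sign and call throughout. Over genes and alternatives, 4204 values kept both, 75 lost the call, 2 gained it and 7 changed sign. The sign changes were ERAP1 with the mean of its probe sets (-0.093), CIITA with centring (0.030), and 3 genes not called as single arrays were left out, KIT (-0.16 to 0.029), CIITA (-0.052 to 0.043) and VCAN (-0.0087 to 0.27). Of the 75 lost calls, 59 came with limma treat, which tests against a log2 difference of 1; MLLT10 was called at 0.45 with the mean of its probe sets. Testing each of 19724 probe sets called 9513 (4824 higher and 4689 lower), treat called 1197 (560 and 637), and leaving out 1 of the 6 arrays called 5958 to 6034 genes, 1773 to 1788 of them at least 2-fold apart. The 2-fold count was 1293 with 16 added before log2, 1577 with the mean of probe sets and 2611 over probe sets. MHC class II members at least 2-fold higher numbered 2 with the mean of probe sets and 2 with 16 added. Centring arrays on their median gave 6326 calls (3397 and 2929), moved the median of all genes to 0.04 and turned 8 list medians within 0.05 of 0 in sign; quantile normalisation turned 1. With the replicate number as a block, 6228 genes were called (3053 and 3175) and PIM1 (-0.26, adjusted p = 0.03) gained its call; the numbers do not pair the samples. Of 742 2-fold genes with several probe sets, 625 had 1 sign in all and 15 had probe sets called in both directions. RMA gives no detection call, so signal over background was not tested.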
